A study of Mus musculus with 12 samples.

Results

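The tumour necrosis factor (TNF) superfamily genes of mouse pancreatic islets were examined on 12 single-colour Agilent arrays. The members were all genes with a named probe whose symbol begins with Tnfsf (ligands) or Tnfrsf (receptors) followed by a number, each represented by its probe of highest mean signal. This rule found 30 of the 17305 named genes, 10 ligands and 20 receptors, measured by 38 probes. RefSeq lists 32 such symbols, and Tnfsf13 and Tnfsf13os had no named probe. Total RNA came from islets of WT mice, of mice lacking the PPARγ2 isoform (PPARg2KO in the labels, PPARγ2KO here), of leptin-deficient obese mice (OB in the labels, ob/ob here) and of obese mice lacking PPARγ2 as well (DKO in the labels, POKO here), with 3 arrays per genotype. All 4 genotypes shared a mixed C57BL/6 x Sv129 background and a chow diet. The labels give an age of 4 weeks, and the study's text an age 1 week higher for female mice. The PPARγ2 deletion and the leptin mutation of the ob allele are carried by every cell of the body, so a difference need not arise in the islet. Islets were picked by hand after collagenase digestion and kept in culture overnight, and each array carried RNA from a pool of mice, so that the spread between arrays is that between pools.

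Ligands of this superfamily are mostly membrane-bound trimers that are sometimes shed, and their receptors cluster when they bind them. Receptors with a death domain in the cytoplasmic tail can start caspase-dependent death, while the others bind TRAF adaptor proteins and feed NF-κB and MAP kinase signalling. Decoy and soluble receptors bind ligand without passing on a signal. Lymphocytes use several of these pairs for costimulation and survival, and in islets the superfamily is best known from the effect of TNF and other cytokines on beta cells in autoimmune diabetes.

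All levels below are log2 quantile-normalised signals, and all differences are differences of these levels, fitted with limma over the 41174 probes of the array. A probe was called well above background on an array where the scanner software flagged every one of its spots so. Levels of different probes cannot be set against each other. Between 54.3% and 57.5% of the probes were well above background on the WT arrays, 57.1% to 60.9% in PPARγ2KO, 60.4% to 64.9% in ob/ob and 61.4% to 61.5% in POKO. The lowest level well above background was 3.55 to 4.04 on the WT arrays, 3.13 to 3.62 in PPARγ2KO, 2.58 to 3.19 in ob/ob and 3.02 to 3.09 in POKO, so a dim probe could be flagged on an obese array at a level at which it was not on a WT array. The arrays with the same replicate number shared a slide, so each slide held all 4 genotypes, and differences within a slide are given beside the fitted ones. The Pparg probe read 8.87, 8.98 and 8.85 in WT and 8.54, 9.77 and 9.61 in ob/ob, against 7.44, 7.27 and 6.60 in PPARγ2KO and 6.41, 7.11 and 7.14 in POKO, with no overlap between the mice with and without PPARγ2. Lep, a gene of adipocytes, was well above background on 0 of 12 arrays and gives no check of the ob allele.

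Markers of other cells moved between the arrays. The mean level of 10 B cell markers was 3.91 to 4.03 in WT, 6.38 to 7.20 in ob/ob and 6.04 to 7.06 in POKO, and that of 10 T cell markers was 3.16 to 3.55, 5.33 to 7.004 and 4.77 to 6.47. Of the B cell markers Ms4a1, Fcer2a and Spib were well above background on 0 of 3 WT arrays and on 3 of 3 arrays of ob/ob and of POKO, and Pax5 was on none of the 12. Of the T cell markers the same held for Cd3g, Cd8a and Cd247, and 6 of the 10 were called higher in ob/ob. Others did not follow. Cd3e read 8.25, 8.33 and 8.08 in WT and 6.09, 6.65 and 7.46 in ob/ob, lower on every ob/ob array, and Cd4 read 5.05, 5.27 and 4.98 in WT and 5.01, 4.77 and 5.18 in ob/ob, with overlap. In PPARγ2KO the library labelled replicate 2 stood apart, with a B cell marker mean of 7.01 against 3.81 and 4.42 and a T cell marker mean of 5.99 against 3.69 and 3.24. Values without this array are given beside most fitted differences that compare PPARγ2KO and beside calls that changed without it. Macrophage markers averaged 6.36 to 7.05 in WT, 7.08 to 7.99 in ob/ob and 7.46 to 8.28 in POKO, and endothelial markers 8.06 to 9.26, 9.65 to 9.95 and 9.36 to 9.77. Beta cell markers averaged 10.65 to 11.99 in WT, 10.78 to 11.67 in PPARγ2KO, 11.10 to 11.75 in ob/ob and 10.55 to 10.83 in POKO, with no overlap between ob/ob and POKO. Acinar markers lay between 16.83 and 17.31 over the 12 arrays, so RNA of the exocrine pancreas was present throughout. In bulk islets fewer cells of a type and less RNA per cell cannot be told apart.

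Of the 30 members 22 were well above background on all arrays of at least 1 genotype and 17 on all 12 arrays. Tnfsf4, Tnfsf12, Tnfsf18, Tnfrsf8 and Tnfrsf17 were well above background on none. The map of all members by array sets these apart with crosses and shows where the obese genotypes differed.

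**Figure D1:**
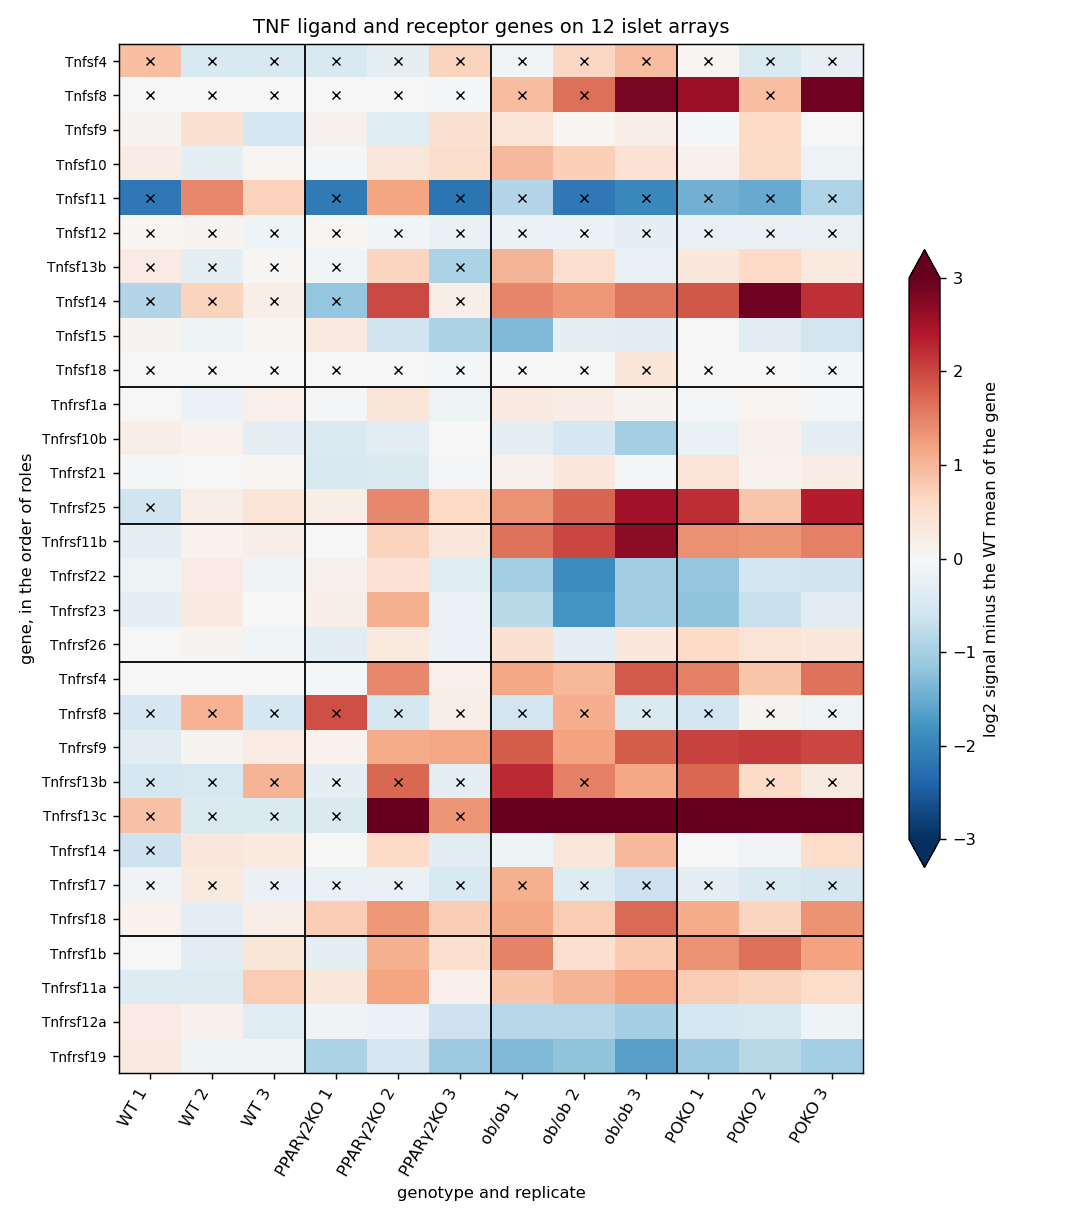
Log2 signal of each of the 30 members (rows, grouped by role between the lines, from ligands at the top over receptors with a death domain, decoy or soluble receptors and TRAF-binding receptors of lymphocytes to other TRAF-binding receptors) on each of the 12 arrays (columns), minus the mean of the gene's 3 WT arrays; a cross marks a value not well above background and colours are capped at −3 and 3. Tnfrsf13c is at the upper end of the scale on PPARγ2KO replicate 2 and on every ob/ob and POKO array, and Tnfrsf11b, Tnfrsf9 and Tnfrsf18 are red, and Tnfrsf19 and Tnfrsf22 blue, on all 6 arrays of the obese genotypes.

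The first comparison asked which superfamily genes differed between the islets of obese mice, at an age when beta cells begin to adapt to insulin resistance, and those of lean mice. In ob/ob islets 5 members were higher than in WT and 2 were lower, at an adjusted p of at most 0.05 (Benjamini-Hochberg over all probes) and a log2 fold change of 1 or more in either direction. Higher were Tnfrsf11b (osteoprotegerin), Tnfrsf9 (4-1BB), Tnfrsf25 (death receptor 3), Tnfrsf13c (the BAFF receptor) and Tnfrsf18 (GITR), and lower were Tnfrsf22, a decoy receptor for TRAIL, and Tnfrsf19 (TROY). All 7 were receptors and 0 of the 10 ligands passed, of which 5 were well above background on all arrays of at least 1 genotype. Over all named genes 4.51% were called higher and 2.17% lower, 6.68% in all, against 7 of the 30 members. With that share, 10 ligands were too few for 0 calls to set them apart from the receptors. By the adjusted p alone 8 members passed, with Tnfrsf12a as the addition, against 13.6% of all genes. At an unadjusted p below 0.05 there were 17 of 30 members against 37% of all genes. The median difference of the members was 0.29 and that of all genes −0.06, and 22 members had a positive difference. That median includes members near background, whose fitted differences are small or uncertain.

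The ob/ob calls depended on single arrays. Leaving out 1 array at a time gave between 2 and 9 members. Without WT replicate 1, WT replicate 2 or ob/ob replicate 3 the 2 that passed were Tnfrsf11b and Tnfrsf19, which passed in all 12 such fits. Without ob/ob replicate 2 there were 3, and without POKO replicate 1 there were 4, whereas without PPARγ2KO replicate 2, the array with high lymphocyte markers, there were 9, with Tnfrsf4 (adjusted p = 0.0226) and Tnfrsf23 (adjusted p = 0.0437) as additions. A fit with the slide as a block gave 5, and a normexp background correction with an offset, which compresses dim probes, gave 1, Tnfrsf11b. With only the ob/ob and WT arrays in the fit, Tnfrsf13c and Tnfrsf19 passed, and Tnfrsf11b, Tnfrsf9, Tnfrsf22, Tnfrsf25 and Tnfrsf18 did not, with adjusted p from 0.0552 to 0.102.

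**Figure D2:**
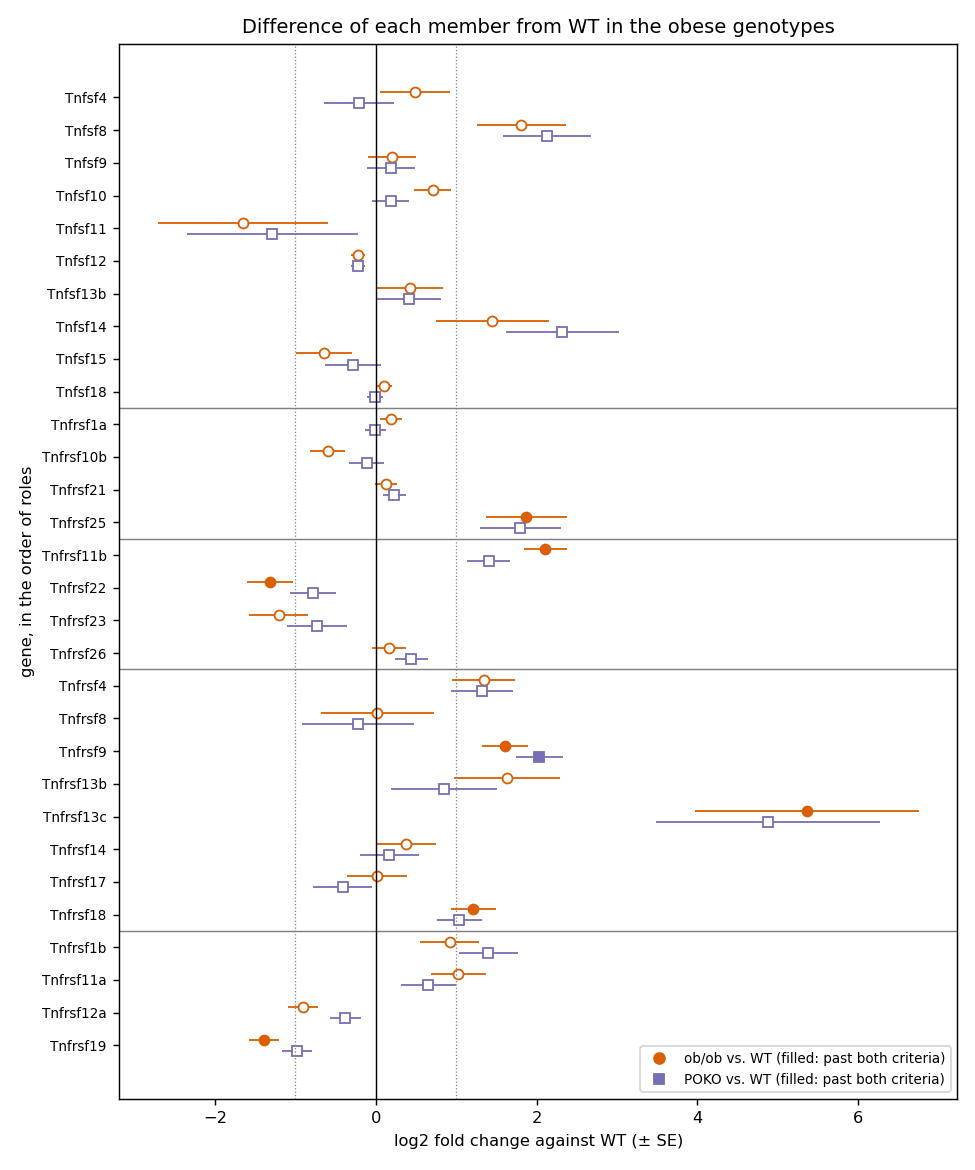
Fitted log2 fold change against WT (x axis, with its SE from limma) of each of the 30 members (y axis, in the order of roles) in ob/ob (circles) and in POKO (squares); filled symbols passed the adjusted p and the fold criterion, and dotted lines stand at −1 and 1. The 7 filled circles and the 1 filled square are all receptors, but only 5 of the 10 ligands were well above background on all arrays of at least 1 genotype. For Tnfsf8, Tnfsf13b, Tnfsf14, Tnfrsf13b and Tnfrsf13c the WT arrays were not well above background, as for the 5 members at background throughout, so that their fitted values are no measured folds. The same holds for Tnfsf11, which was well above background on no ob/ob or POKO array.

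Among the 10 ligands no difference passed. Tnfsf10 (TRAIL), the ligand of the death receptor Tnfrsf10b and of decoy receptors, read 5.07, 4.56 and 4.90 in WT, 4.80, 5.17 and 5.36 in PPARγ2KO, 5.81, 5.57 and 5.27 in ob/ob and 4.97, 5.42 and 4.70 in POKO. Every ob/ob array was above every WT array, while POKO overlapped both. The difference from WT was 0.71 ± 0.23 (SE) in ob/ob (adjusted p = 0.0758) and 0.19 ± 0.23 (SE) in POKO (adjusted p = 0.707), and neither passed. Tnfsf14 (LIGHT), which binds Tnfrsf14 and the lymphotoxin β receptor, read 1.43, 2.96 and 2.49 in WT, 1.14, 4.28 and 2.49 in PPARγ2KO, 3.75, 3.59 and 3.89 in ob/ob and 4.16, 5.21 and 4.48 in POKO. It was well above background on all 6 arrays of the obese genotypes and on PPARγ2KO replicate 2, and on none of the other 5. POKO was at least 1.74-fold above WT (adjusted p = 0.155), a bound because WT was not well above background.

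Tnfsf13b (BAFF), the survival factor of B cells, read 4.04, 3.53 and 3.83 in WT, 3.73, 4.46 and 2.85 in PPARγ2KO, 4.82, 4.29 and 3.57 in ob/ob and 4.12, 4.40 and 4.10 in POKO. The ob/ob arrays overlapped WT, and the difference of 0.43 ± 0.41 (SE) ran from -0.26 to 0.78 within slides and did not pass (adjusted p = 0.499). The POKO arrays were above the WT arrays, by 0.41 ± 0.41 (SE) (adjusted p = 0.636). It was flagged well above background on ob/ob replicate 3 and not on WT replicate 1, although the level was higher on the latter. Tnfsf11 (RANKL), which Tnfrsf11b captures and Tnfrsf11a transmits, was well above background on WT replicates 2 and 3 and on PPARγ2KO replicate 2, at 4.70, 3.95 and 4.44, and on none of the other 9 arrays. With WT replicate 1 at 1.12, the groups overlapped and the differences did not pass (adjusted p = 0.319 in ob/ob and 0.567 in POKO).

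Tnfsf15 (TL1A), the ligand of Tnfrsf25, read 5.34, 5.14 and 5.30 in WT, 5.52, 4.66 and 4.31 in PPARγ2KO, 3.94, 4.97 and 4.93 in ob/ob and 5.26, 4.95 and 4.72 in POKO. All 3 ob/ob arrays were below the WT arrays, though the difference of -0.65 ± 0.35 (SE) did not pass (adjusted p = 0.239). Tnfsf9, the ligand of 4-1BB, read 5.67, 6.07 and 5.06 in WT, 5.73, 5.24 and 6.05 in PPARγ2KO, 5.99, 5.63 and 5.79 in ob/ob and 5.57, 6.19 and 5.60 in POKO, and all 4 groups overlapped. Its difference from WT was 0.20 ± 0.29 (SE) in ob/ob (adjusted p = 0.665), with a 95% confidence interval from -0.46 to 0.86. Tnfsf8 (the ligand of CD30) was well above background on ob/ob replicate 3 and POKO replicates 1 and 3, at 4.20, 3.91 and 4.28, and on none of the other 9. Neither difference from WT passed for Tnfsf8 (adjusted p = 0.0628 in ob/ob and 0.120 in POKO). The other ligands, Tnfsf4 (OX40 ligand), Tnfsf12 (TWEAK) and Tnfsf18 (GITR ligand), were at background on every array and spanned 1.096 to 2.48, 1.43 to 1.81 and 1.13 to 1.53. Their receptors Tnfrsf4, Tnfrsf12a and Tnfrsf18 were well above background on all 12 arrays. Of the 10 ligands 5 were well above background on all arrays of at least 1 genotype.

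Of the 4 receptors with a death domain, 1 passed in ob/ob. Tnfrsf25, which costimulates T cells when TL1A binds, read 4.11, 4.90 and 5.08 in WT, 4.89, 6.15 and 5.30 in PPARγ2KO, 6.05, 6.45 and 7.22 in ob/ob and 6.91, 5.52 and 7.06 in POKO. No ob/ob or POKO array reached down to a WT array, and PPARγ2KO replicate 2 lay among the obese genotypes. The probe was well above background on 2 of 3 WT arrays, WT replicate 1 being the exception, so the folds rest in part on a level near background. The rise was 3.66-fold in ob/ob (1.87 ± 0.50 (SE), adjusted p = 0.0458, within slides 1.55 to 2.13), while the 3.47-fold difference of POKO did not pass (adjusted p = 0.135). With the slide as a block its adjusted p in ob/ob was 0.0513, and the call was also lost in 8 of the 12 fits that left out 1 array, those without WT replicate 1 or 2, PPARγ2KO replicate 1 or 3, ob/ob replicate 2 or 3 or POKO replicate 1 or 3, where its adjusted p reached 0.139. The other probe of Tnfrsf25 differed by 1.88 (adjusted p = 0.0285), but was well above background on 0 of 3 WT arrays.

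Tnfrsf10b, the death receptor for TRAIL in the mouse, read 7.49, 7.41 and 7.01 in WT, 6.88, 6.98 and 7.31 in PPARγ2KO, 7.03, 6.80 and 6.29 in ob/ob and 7.11, 7.44 and 7.02 in POKO. The groups overlapped by WT replicate 3 and ob/ob replicate 1, and the difference of -0.60 ± 0.22 (SE) in ob/ob did not pass (adjusted p = 0.0976). Its 2 other probes differed by -0.72 and -0.50, in the same direction. Tnfrsf1a, the main receptor for TNF itself, lay between 11.38 and 11.91 on all 12 arrays, and its difference from WT was 0.19 ± 0.14 (SE) in ob/ob (adjusted p = 0.364) with a 95% interval from -0.12 to 0.50. Tnfrsf21 (death receptor 6) read 7.87, 7.89 and 7.95 in WT, 7.43, 7.46 and 7.86 in PPARγ2KO, 8.03, 8.22 and 7.84 in ob/ob and 8.28, 8.00 and 8.12 in POKO. All 3 PPARγ2KO arrays were below the WT arrays and all 3 POKO arrays above them, by differences of -0.32 and 0.23 that did not pass (adjusted p = 0.531 and 0.457). Without PPARγ2KO replicate 2 the difference of PPARγ2KO from WT was -0.26 (adjusted p = 0.792).

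Among the 4 receptors grouped here as decoy or soluble, 1 was higher and 1 lower in ob/ob. The place of Tnfrsf26 in this group was not tested. Tnfrsf11b, the secreted decoy for RANKL that also binds TRAIL, read 6.34, 6.73 and 6.81 in WT, 6.62, 7.30 and 6.96 in PPARγ2KO, 8.26, 8.63 and 9.32 in ob/ob and 8.00, 7.96 and 8.14 in POKO. All ob/ob arrays were above all POKO arrays, and these above all arrays of the lean genotypes. In ob/ob Tnfrsf11b rose 4.32-fold (2.11 ± 0.27 (SE), adjusted p = 0.0124), with differences within slides from 1.90 to 2.51. In POKO the difference was 2.65-fold (1.41 ± 0.27 (SE)) and did not pass (adjusted p = 0.0745), though it did without PPARγ2KO replicate 2 (adjusted p = 0.0411). The ob/ob call was kept in all 12 fits that left out 1 array and with the slide as a block, and was lost when only the ob/ob and WT arrays entered the fit (adjusted p = 0.0552).

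Tnfrsf22, a TRAIL receptor of the mouse without a death domain, read 7.45, 7.86 and 7.51 in WT, 7.74, 8.05 and 7.24 in PPARγ2KO, 6.58, 5.73 and 6.57 in ob/ob and 6.44, 7.04 and 7.004 in POKO. The obese and lean genotypes did not overlap. In ob/ob Tnfrsf22 fell 2.49-fold (-1.31 ± 0.29 (SE), adjusted p = 0.0307, within slides -2.13 to -0.88), and the call was lost without WT replicate 1 or 2 or ob/ob replicate 2 or 3 (adjusted p up to 0.109). Its neighbour and close relative Tnfrsf23, another decoy for TRAIL, read 4.94, 5.48 and 5.18 in WT, 5.41, 6.26 and 5.02 in PPARγ2KO, 4.39, 3.41 and 4.17 in ob/ob and 4.00, 4.53 and 4.88 in POKO. The order of the genotypes was that of Tnfrsf22, and the difference of -1.21 ± 0.37 (SE) in ob/ob did not pass (adjusted p = 0.0636). Whether either probe also binds RNA of the other gene was not tested. Tnfrsf26, which flanks Tnfrsf22 on its other side, read 6.02, 6.12 and 5.96 in WT, 5.69, 6.32 and 5.85 in PPARγ2KO, 6.49, 5.76 and 6.35 in ob/ob and 6.63, 6.45 and 6.35 in POKO, and differed from WT by 0.17 ± 0.21 (SE) in ob/ob (adjusted p = 0.615). The 3 genes follow each other on chromosome 7 with 0 protein-coding genes between them in RefSeq. The differences of Tnfrsf22 and Tnfrsf23 were negative on each slide, while that of Tnfrsf26 ran from -0.36 to 0.47 within slides and had no settled sign.

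**Figure D3:**
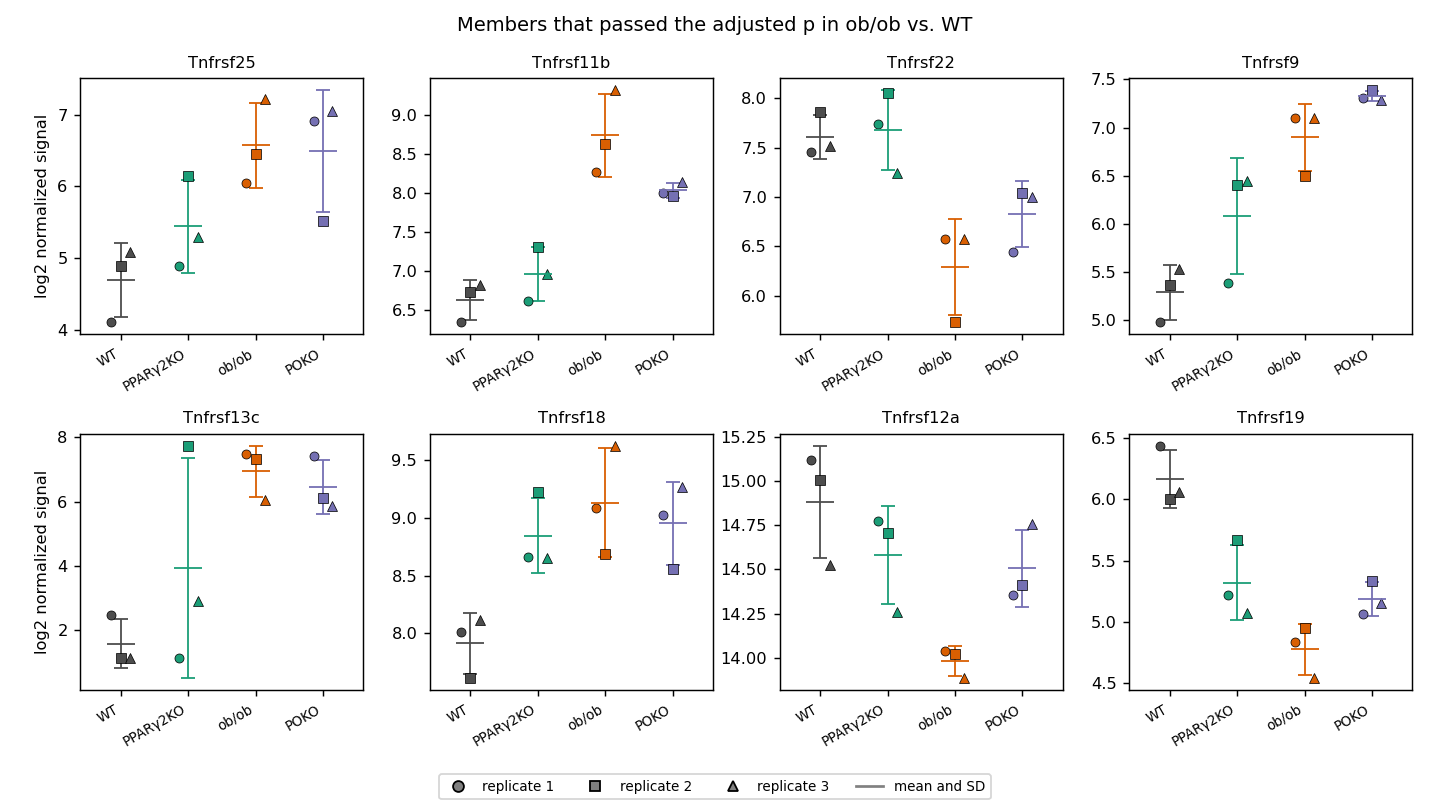
Log2 normalised signal (y axis, a separate scale in each panel) of the 7 members that passed both criteria in ob/ob vs. WT and of Tnfrsf12a, which passed the adjusted p alone, on each array of the 4 genotypes (x axis); symbols are single arrays, coded by replicate number, and lines give the mean and SD of 3 arrays. The ob/ob and WT arrays do not overlap in any panel, and PPARγ2KO replicate 2 (square) lies with the obese genotypes for Tnfrsf13c.

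The 8 TRAF-binding receptors of lymphocytes held 3 of the 5 rises in ob/ob and the only call in POKO. Of the 8, 5 were well above background on all arrays of at least 1 genotype, and the others had levels near background. Tnfrsf9, a costimulatory receptor induced on activated T cells, read 4.98, 5.37 and 5.53 in WT, 5.39, 6.41 and 6.45 in PPARγ2KO, 7.10, 6.50 and 7.10 in ob/ob and 7.31, 7.39 and 7.29 in POKO. Every obese array was above every lean one, with ob/ob replicate 2 only just above PPARγ2KO replicate 3. It rose 3.05-fold in ob/ob (1.61 ± 0.29 (SE), adjusted p = 0.0217, within slides 1.13 to 2.12) and 4.10-fold in POKO (2.04 ± 0.29 (SE), adjusted p = 0.0372, within slides 1.76 to 2.33). Its other probe differed by 1.39 in ob/ob (adjusted p = 0.0384) and by 1.52 in POKO (adjusted p = 0.101). The ob/ob call was lost without WT replicate 1 or 2 or ob/ob replicate 3. In POKO the adjusted p was 0.0866 with the slide as a block, and the call was lost in 8 of the 12 fits that left out 1 array, those without WT replicate 1 or 2 or any array of ob/ob or POKO (adjusted p up to 0.148).

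Tnfrsf13c, through which BAFF keeps B cells alive, read 2.47, 1.15 and 1.14 in WT, 1.16, 7.74 and 2.90 in PPARγ2KO, 7.48, 7.34 and 6.04 in ob/ob and 7.41, 6.12 and 5.86 in POKO. It was well above background on all 6 obese arrays and on PPARγ2KO replicate 2, the arrays with high B cell markers, and on none of the other 5. With WT not well above background the difference was at least 8.82-fold in ob/ob (adjusted p = 0.0418) and at least 6.28-fold in POKO (adjusted p = 0.141), of which the first passed. Its adjusted p in ob/ob was 0.0527 with the slide as a block, and the call was lost without any single array of WT, ob/ob or POKO (adjusted p up to 0.127). Without PPARγ2KO replicate 2 the adjusted p was 0.00601 in ob/ob and 0.0132 in POKO. The part of B cell RNA in these differences was not tested.

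Tnfrsf18, known from regulatory and activated T cells, read 8.01, 7.62 and 8.11 in WT, 8.66, 9.22 and 8.65 in PPARγ2KO, 9.08, 8.68 and 9.62 in ob/ob and 9.02, 8.56 and 9.27 in POKO. The 3 WT arrays were below all 9 others. It rose 2.32-fold in ob/ob (1.21 ± 0.28 (SE), adjusted p = 0.0331, within slides 1.07 to 1.51), and the call was lost without WT replicate 1 or 2, ob/ob replicate 2 or 3 or POKO replicate 1. Tnfrsf4 (OX40), a costimulatory receptor of T cells and the neighbour of Tnfrsf18 on chromosome 4, read 6.08, 6.06 and 6.09 in WT, 6.05, 7.53 and 6.24 in PPARγ2KO, 7.25, 7.08 and 7.93 in ob/ob and 7.60, 6.92 and 7.70 in POKO. All obese arrays and PPARγ2KO replicate 2 were above the other 5, which lay within 6.05 to 6.24. The differences of 1.34 ± 0.39 (SE) in ob/ob (adjusted p = 0.0549) and 1.32 ± 0.39 (SE) in POKO (adjusted p = 0.146) did not pass. Tnfrsf14 (HVEM), the receptor for LIGHT, read 4.12, 5.07 and 5.02 in WT, 4.75, 5.31 and 4.42 in PPARγ2KO, 4.58, 5.07 and 5.71 in ob/ob and 4.76, 4.66 and 5.29 in POKO, with overlap between all 4 genotypes and a difference of 0.38 ± 0.37 (SE) in ob/ob (adjusted p = 0.505). Tnfrsf13b (TACI), another BAFF receptor, was well above background on ob/ob replicates 1 and 3 and POKO replicate 1 alone, at 3.96, 2.88 and 3.44. Tnfrsf8 (CD30) and Tnfrsf17 (BCMA), of activated lymphocytes and plasma cells, were at background throughout.

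**Figure D4:**
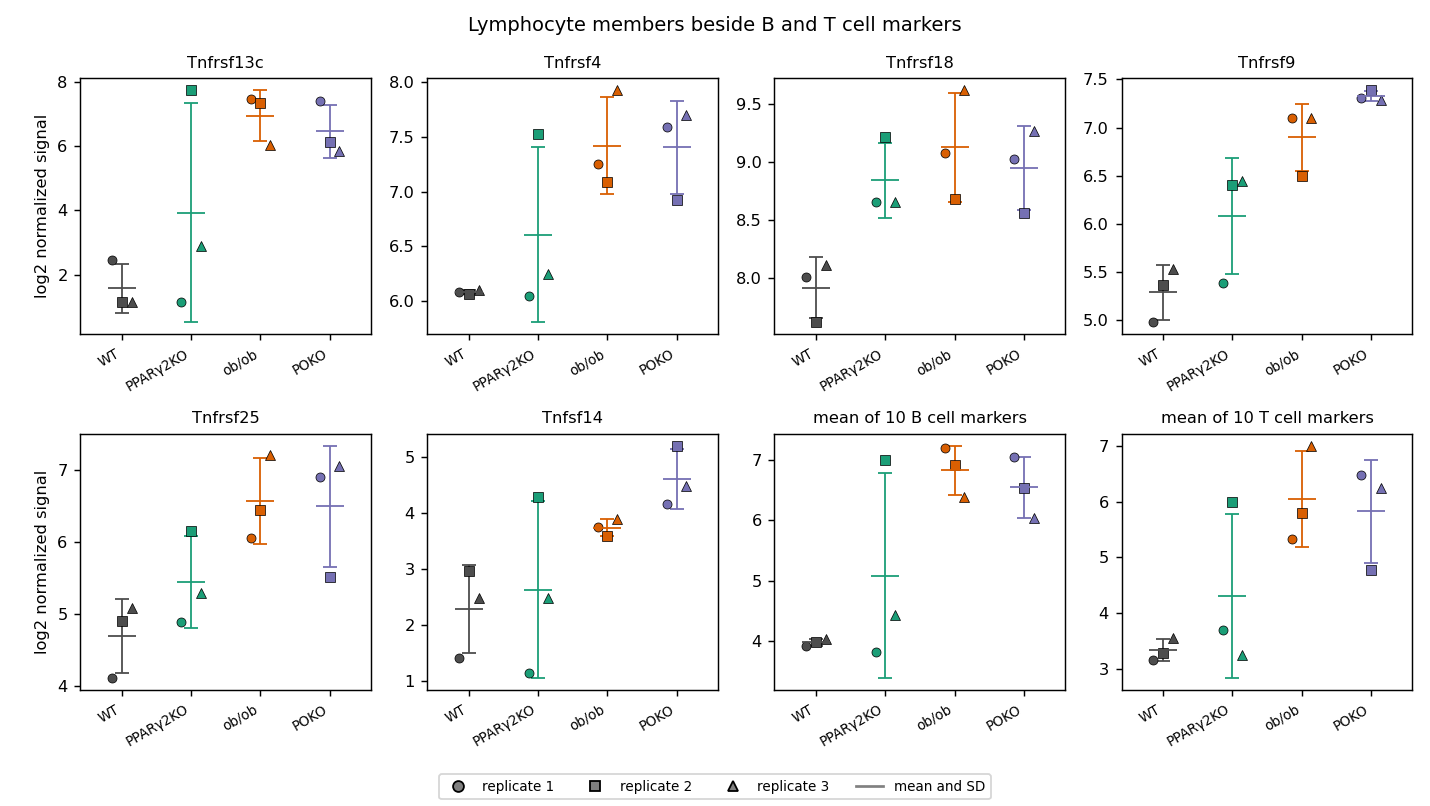
Log2 normalised signal (y axis, a separate scale in each panel) of 6 members with roles in lymphocytes, and the mean level of 10 B cell and of 10 T cell markers, on each array of the 4 genotypes (x axis); symbols are single arrays, coded by replicate number, and lines give the mean and SD of 3 arrays. PPARγ2KO replicate 2 (square) is the highest of its group for Tnfrsf13c, Tnfrsf4, Tnfrsf18, Tnfrsf25, Tnfsf14 and both marker means, and PPARγ2KO replicate 3 is as high as it for Tnfrsf9.

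Promoter windows from RefSeq (GRCm38.p6, from 250 bases before to 50 after an annotated start) were found by symbol for 23 of the 30 members, 27 windows in all. The NF-κB consensus, searched on both strands, matched in windows of Tnfrsf8 and Tnfrsf9, 2 of the 27, against 4.51% of the 32851 windows of all genes. The motif AGGTCA, which nuclear receptors bind and which a PPARγ response element repeats, searched on both strands as well, matched in 4 windows, those of Tnfrsf9, Tnfrsf25, Tnfrsf13b and Tnfsf10, against 16.3%. Shown are the windows of Tnfrsf9, the only member called in both obese genotypes, of Tnfrsf13c, with the highest bound, and of Tnfrsf19, called lower in every fit that left out an array. Capitals mark the matches, first of the NF-κB consensus, which overlaps itself on both strands there, and then of AGGTCA on the minus strand. Neither motif matched in the windows of Tnfrsf13c and Tnfrsf19, which says only that these letters are not in these windows.
Tnfrsf9, the downstream of its annotated starts, chr4:150927749-150928048 (plus strand): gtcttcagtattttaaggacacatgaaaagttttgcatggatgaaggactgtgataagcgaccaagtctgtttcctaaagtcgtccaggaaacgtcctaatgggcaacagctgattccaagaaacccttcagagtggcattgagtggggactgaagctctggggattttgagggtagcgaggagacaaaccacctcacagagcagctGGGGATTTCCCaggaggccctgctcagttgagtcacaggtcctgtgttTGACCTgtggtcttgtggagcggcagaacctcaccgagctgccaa
Tnfrsf13c, chr15:82224331-82224630 (minus strand): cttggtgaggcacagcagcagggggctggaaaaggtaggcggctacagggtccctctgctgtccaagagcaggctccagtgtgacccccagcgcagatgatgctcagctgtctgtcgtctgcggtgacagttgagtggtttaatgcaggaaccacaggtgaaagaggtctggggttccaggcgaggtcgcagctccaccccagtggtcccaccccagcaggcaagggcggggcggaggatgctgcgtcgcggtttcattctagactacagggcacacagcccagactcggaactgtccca
Tnfrsf19, the upstream of its annotated starts, chr14:61046806-61047105 (minus strand): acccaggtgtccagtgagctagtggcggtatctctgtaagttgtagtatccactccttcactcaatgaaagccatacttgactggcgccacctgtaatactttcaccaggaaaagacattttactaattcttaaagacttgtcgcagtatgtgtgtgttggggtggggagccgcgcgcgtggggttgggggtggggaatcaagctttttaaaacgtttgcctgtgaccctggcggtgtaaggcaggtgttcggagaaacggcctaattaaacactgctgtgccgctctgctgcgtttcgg

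The 4 other TRAF-binding receptors split by direction. Tnfrsf19, a receptor of stem and progenitor cells in several epithelia, read 6.44, 6.00 and 6.06 in WT, 5.22, 5.67 and 5.08 in PPARγ2KO, 4.84, 4.95 and 4.54 in ob/ob and 5.07, 5.34 and 5.16 in POKO. All 9 arrays of the mutant genotypes were below the 3 WT arrays, and ob/ob was below every other group. It fell 2.62-fold in ob/ob (-1.39 ± 0.18 (SE), adjusted p = 0.0125, within slides -1.60 to -1.05). In POKO the difference of -0.98 ± 0.18 (SE) did not pass (adjusted p = 0.0739). Tnfrsf12a (FN14), the receptor for TWEAK that injured and regenerating tissue induces, read 15.12, 15.01 and 14.52 in WT, 14.77, 14.71 and 14.26 in PPARγ2KO, 14.04, 14.02 and 13.89 in ob/ob and 14.35, 14.41 and 14.75 in POKO. The ob/ob arrays were below all 9 others. The difference of -0.90 ± 0.19 (SE) in ob/ob passed the adjusted p (0.0280) and not the fold criterion, and that of -0.38 ± 0.19 (SE) in POKO passed neither (adjusted p = 0.368). Duct markers, another epithelial list, averaged 10.48 to 10.78 in WT, 10.01 to 10.50 in ob/ob and 10.12 to 10.60 in POKO, and their part in these falls was not tested.

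Tnfrsf1b, the other receptor for TNF and common on lymphocytes and myeloid cells, read 5.87, 5.55 and 6.26 in WT, 5.59, 6.96 and 6.40 in PPARγ2KO, 7.38, 6.38 and 6.67 in ob/ob and 7.24, 7.54 and 7.10 in POKO. All 6 obese arrays were above the WT arrays, by 0.92 ± 0.37 (SE) in ob/ob (adjusted p = 0.124) and 1.40 ± 0.37 (SE) in POKO (adjusted p = 0.120), and neither difference passed. The other probe of Tnfrsf1b differed by -0.31 in ob/ob and -0.16 in POKO, so the probes of this gene disagreed in sign. Tnfrsf11a (RANK), which transmits the RANKL signal that osteoclasts need, read 4.72, 4.70 and 5.87 in WT, 5.43, 6.28 and 5.26 in PPARγ2KO, 5.93, 6.13 and 6.32 in ob/ob and 5.85, 5.76 and 5.65 in POKO. WT replicate 3 was far above its group, at the level of the obese arrays, and the difference of 1.03 ± 0.34 (SE) in ob/ob did not pass (adjusted p = 0.0792), whereas without that array it did (adjusted p = 0.0135). The other probe of Tnfrsf11a differed by 0.66 in ob/ob (adjusted p = 0.343) and was well above background on 0 WT arrays.

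In POKO vs. WT, the comparison of obese mice lacking PPARγ2 with lean mice, Tnfrsf9 alone was called, 1 of 30 against 0.191% of all genes. At an unadjusted p below 0.05 there were 12 members against 17.2%, with 9 higher and 3 lower. These were Tnfsf8, Tnfsf14, Tnfrsf25, Tnfrsf11b, Tnfrsf4, Tnfrsf9, Tnfrsf13c, Tnfrsf18 and Tnfrsf1b on the higher side and Tnfsf12, which was at background, Tnfrsf22 and Tnfrsf19 on the lower. The count of calls was 9 with weights for single arrays and 3 without PPARγ2KO replicate 2. The ob/ob and POKO comparisons share the 3 WT arrays, so their values are given side by side above and were not set against each other.

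POKO vs. ob/ob asked directly what the loss of PPARγ2 changed in obese islets. It called 0 members, and 0% of all genes. At an unadjusted p below 0.05 there were 2 members, Tnfrsf11b and Tnfrsf12a, against 11.8% of all genes. Tnfrsf11b differed by -0.70 ± 0.27 (SE) (95% interval -1.31 to -0.10, adjusted p = 0.531), and on each of the 3 slides, by -1.17 to -0.26. Tnfrsf12a was higher by 0.53 ± 0.19 (SE) (adjusted p = 0.531), again on each slide. Of the beta cell markers 0 of 8 were higher in POKO than in ob/ob (median difference -0.77) and of the endothelial markers 0 of 8 (-0.36), whereas 8 of 9 macrophage markers were higher (0.54). None of these was called, and their part in the differences of Tnfrsf11b and Tnfrsf12a was not tested. For the other calls of ob/ob vs. WT the 95% interval of the difference between POKO and ob/ob ran from -0.22 to 1.08 for Tnfrsf9, from -1.21 to 1.06 for Tnfrsf25, from -3.63 to 2.65 for Tnfrsf13c, from -0.81 to 0.45 for Tnfrsf18, from -0.12 to 1.19 for Tnfrsf22 and from -0.0019 to 0.82 for Tnfrsf19. These intervals leave room for differences of 1 or more on the log2 scale for Tnfrsf25, Tnfrsf13c, Tnfrsf22 and Tnfrsf9.

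In PPARγ2KO vs. WT, the loss of PPARγ2 in lean mice, 0 members were called, as were 0% of all genes. Tnfrsf19, Tnfrsf18, Tnfrsf9 and Tnfrsf21 had an unadjusted p below 0.05, 4 members against 8.83%. Tnfrsf19 differed by -0.85 ± 0.18 (SE) (adjusted p = 0.310), and by -1.02 without replicate 2 (adjusted p = 0.147). Tnfrsf18 was higher by 0.93 ± 0.28 (SE) (adjusted p = 0.457), and by 0.74 without replicate 2 (adjusted p = 0.745). The receptor Tnfrsf9 was higher by 0.79 ± 0.29 (SE) (adjusted p = 0.496), and by 0.63 without that array (adjusted p = 0.757), with both PPARγ2KO replicates 2 and 3 near the ob/ob level.

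The other contrasts called no member. POKO vs. PPARγ2KO, which compares leptin-deficient obese mice with lean mice where PPARγ2 is absent in both, called 0% of all genes. In it 9 members had an unadjusted p below 0.05 against 12.9%, of which 7 were higher and 2, Tnfrsf22 and Tnfrsf23, lower. Tnfrsf22 differed by -0.85 ± 0.29 (SE) (adjusted p = 0.348), and by -0.66 without PPARγ2KO replicate 2 (adjusted p = 0.528). Tnfrsf23 differed by -1.09 ± 0.37 (SE) (adjusted p = 0.344), and by -0.75 without PPARγ2KO replicate 2 (adjusted p = 0.522). Without PPARγ2KO replicate 2 it called Tnfrsf13c. In ob/ob vs. PPARγ2KO 0.00578% of all genes were called, and 8 members had an unadjusted p below 0.05 against 25.1%. The leading difference there was that of Tnfrsf11b, 1.78 ± 0.27 (SE) (adjusted p = 0.0774), which passed without PPARγ2KO replicate 2 (adjusted p = 0.0286). Tnfrsf13c was called in this contrast as well without that array. The interaction, in which the effect of PPARγ2 loss in lean mice is subtracted from that in obese mice, called 0 members and 0% of all genes, and 6 members had an unadjusted p below 0.05 against 16.1%. Tnfrsf19 had the smallest p among them. With PPARγ2 loss its level was lower in lean mice and higher in obese mice, without a call in either. The interaction was 1.26 ± 0.26 (SE) (adjusted p = 0.222). For Tnfrsf18 it was -1.11 ± 0.40 (SE) (adjusted p = 0.294) and for Tnfrsf11b -1.04 ± 0.38 (SE) (adjusted p = 0.299). Without PPARγ2KO replicate 2 these were 1.43 for Tnfrsf19 (adjusted p = 0.125), -0.92 for Tnfrsf18 (adjusted p = 0.420) and -0.86 for Tnfrsf11b (adjusted p = 0.429). The other 3 were Tnfrsf12a, Tnfsf10 and Tnfrsf10b.

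Many of these genes lie side by side. Of the 30 members 9 are on chromosome 4, and several are neighbours with 0 protein-coding genes between them in RefSeq. These were Tnfsf15 and Tnfsf8, Tnfrsf1b and Tnfrsf8, and Tnfrsf4 and Tnfrsf18 on chromosome 4, Tnfsf4 and Tnfsf18 on chromosome 1, and Tnfrsf26, Tnfrsf22 and Tnfrsf23 on chromosome 7. Tnfrsf4 and Tnfrsf18 were both higher in ob/ob, by 1.34 and 1.21, and the differences of Tnfrsf22 and Tnfrsf23 were -1.31 and -1.21, although only Tnfrsf18 and Tnfrsf22 passed.

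Superfamily genes under other symbols, a list of 14 measured genes with their adaptor Edaradd among them, held 2 higher and 3 lower genes in ob/ob, against 4.51% and 2.17% of all genes. Ltb (lymphotoxin β), a ligand of lymphocytes that shapes lymphoid tissue, read 8.60, 7.26 and 8.95 in WT, 9.88, 11.18 and 10.35 in PPARγ2KO, 11.70, 11.53 and 12.18 in ob/ob and 11.82, 10.88 and 11.35 in POKO. WT was below all 9 others. Ltb rose by 3.53 ± 0.48 (SE) in ob/ob (adjusted p = 0.0126), and the difference of 3.09 ± 0.48 (SE) in POKO did not pass (adjusted p = 0.0511). Its partner Lta, well above background on no WT array, rose by a factor of at least 1.97 in ob/ob (adjusted p = 0.0325). Eda (ectodysplasin), which guides hair and gland formation, fell, with a difference of -1.47 ± 0.39 (SE) (adjusted p = 0.0433) and so did Edaradd, the adaptor of its receptor, with -1.43 ± 0.36 (SE) (adjusted p = 0.0398). Eda2r was called lower as well, but was at background on every array. Tnf itself read 5.68, 5.43 and 5.72 in WT, 6.76, 6.14 and 6.39 in PPARγ2KO, 5.91, 5.23 and 5.51 in ob/ob and 5.82, 6.46 and 5.90 in POKO, and differed from WT by -0.06 ± 0.23 (SE) in ob/ob (adjusted p = 0.895). The PPARγ2KO arrays were above the WT arrays for Tnf, without a call. Over this list the median difference was 0.14 in ob/ob and 0.31 in POKO. The alternative fits, with those that left out an array, were followed for the members alone. Calls in this list and in the lists below were not checked in that way.

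Of 41 measured genes of the signal path behind the receptors, 1 rose and 1 fell in ob/ob, against 4.51% and 2.17% of all genes, a count near those shares. Their median difference was 0.0043. Traf1, an adaptor that activated lymphocytes induce, read 7.71, 7.88 and 7.86 in WT, 7.36, 8.91 and 8.09 in PPARγ2KO, 9.48, 9.18 and 10.11 in ob/ob and 9.60, 9.31 and 9.58 in POKO, and rose by 1.77 ± 0.36 (SE) in ob/ob (adjusted p = 0.0266). Traf4, an adaptor of epithelia, fell by 1.03 (adjusted p = 0.0481) with ob/ob replicate 3 the lowest, at 10.16 against 11.50 and 11.16. Of 20 measured target genes of NF-κB, 3 rose and 0 fell, against 4.51% and 2.17% of all genes. These were Traf1 again, Ccl5, a chemokine of T cells, by 2.31 ± 0.40 (SE) (adjusted p = 0.0200) and Cxcl10, a chemokine induced by interferon, by 1.22 ± 0.34 (SE) (adjusted p = 0.0490). The median of this list was 0.46 in ob/ob and 0.55 in POKO. No gene of the last 3 lists was called in POKO vs. WT, where 0.191% of all genes were. The mean of the T cell markers above was higher on every ob/ob array than on any WT array. Ltb was above WT on PPARγ2KO replicates 1 and 3, at 9.88 and 10.35. The T cell marker means of these PPARγ2KO arrays were 3.69 and 3.24, against 3.16 to 3.55 in WT. Their B cell marker means were 3.81 and 4.42, against 3.91 to 4.03 in WT. Ccl5 was highest on POKO replicate 2, at 13.12, the obese array with the lowest T cell marker mean (4.77). The part of T cell or B cell RNA in these rises was not tested.

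**Figure D5:**
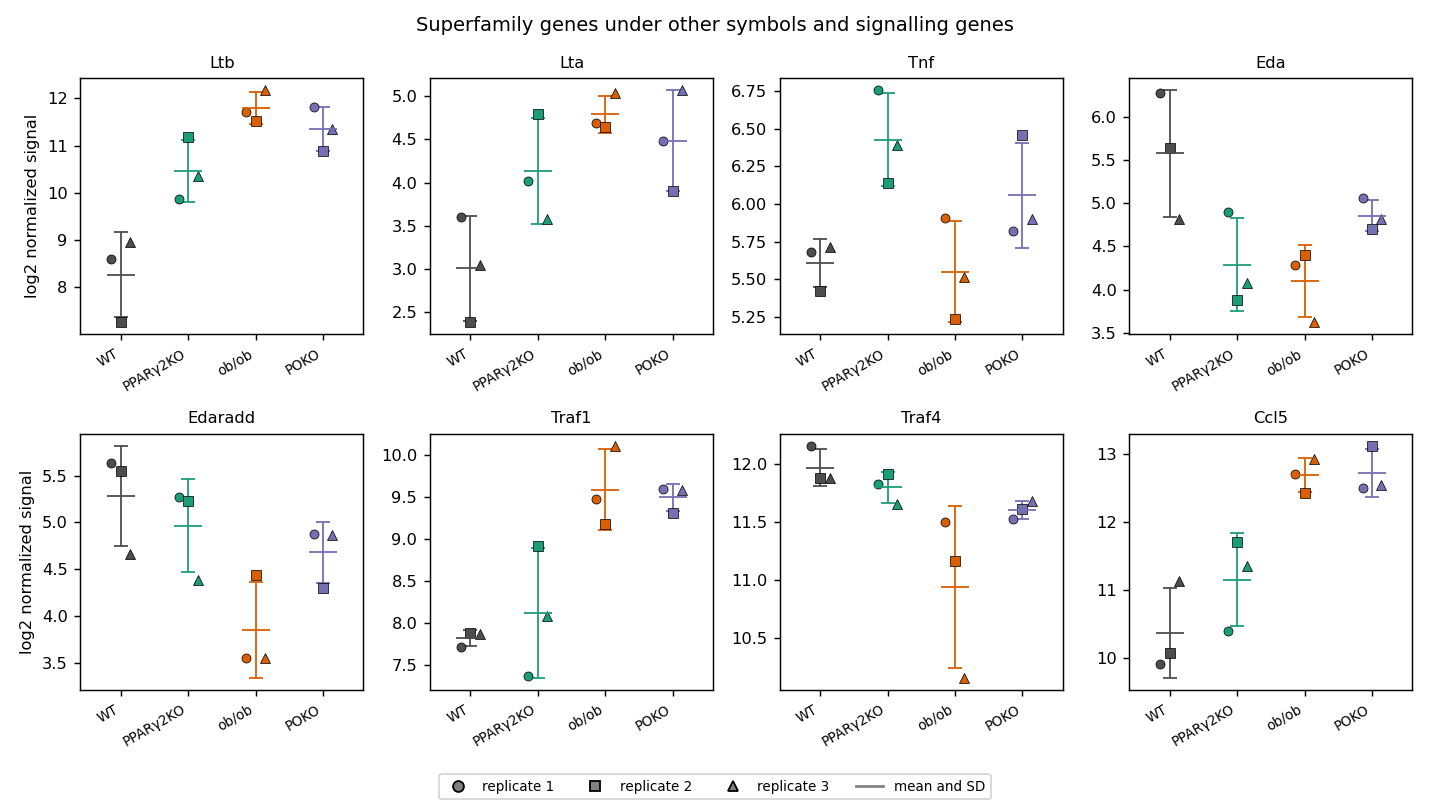
Log2 normalised signal (y axis, a separate scale in each panel) of superfamily ligands under other symbols (Ltb, Lta, Tnf and Eda), of the adaptors Edaradd, Traf1 and Traf4 and of the chemokine Ccl5 on each array of the 4 genotypes (x axis); symbols are single arrays, coded by replicate number, and lines give the mean and SD of 3 arrays. For Ltb the 3 WT arrays are below all others, and for Traf1 the 6 arrays of the obese genotypes are above all 6 of the lean ones.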

How the data were processed

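Islet RNA of 12 pools of mice, 3 for each of 4 genotypes by the labels, was hybridised in one colour to Agilent Whole Mouse Genome 4x44K arrays. The deposited intensity per the file headers is the processed signal of Agilent Feature Extraction 10.1.1.1, background-subtracted and detrended within each array and not normalised between arrays. The deposited log2 values of the series table are those the authors quantile-normalised, and they served as an alternative.

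Control spots and 919 outlier spots were left out, signals were quantile-normalised, log2-transformed and averaged over the spots of a probe. Probes were named through their RefSeq accession (25097 of 41174, for 17305 genes), since the array's design predates current symbols. limma (version 3.58.1 in R 4.3.3) was fitted to all 12 arrays with genotype as the factor, with Benjamini-Hochberg adjustment over all 41174 probes, for 6 pairwise contrasts and the interaction. The study's block for the array could not be fitted with 1 sample per array. Nothing in the labels says that the pools were drawn in separate experiments, so p-values measure the spread between these arrays, whose number limits the precision. A gene not well above background in 1 group got a bound, the mean of the brighter group over the higher of the dim probe's value and the lowest value well above background on each array, on the log2 scale.

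Every member is named. Values on single arrays are given for members called in any contrast, for those with an unadjusted p below 0.05 in any contrast and well above background throughout 1 genotype, and for their cognate partners. The members and lists were chosen with earlier results of these data known. The code was tested on simulated data. By the file headers the arrays with the same replicate number were on 1 slide, and deviations of same-numbered arrays from their group means correlated by -0.134 to 0.184, with 4 of 18 pairs over 0.1. Alternatives were another scaling, background correction, a filter on dim probes, outlier spots kept, the authors' values, each gene by the mean of its probes, no fold criterion, only the compared groups, array weights, the slide as a block and leaving out each array.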

Additional observations from a re-analysis of the deposited data

How the results depend on the processing

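The member counts of POKO vs. ob/ob, PPARγ2KO vs. WT and the interaction were 0 under each alternative that could be fitted, the interaction having no fit with only the compared groups. In ob/ob vs. WT, with 7 members called, the count was 1 with normexp, 2 with only the compared groups and 11 with array weights. With normexp, whose offset shrinks the folds of dim probes, Tnfrsf22, Tnfrsf9, Tnfrsf18 and Tnfrsf19 kept an adjusted p below 0.05 but not the fold. In POKO vs. WT, with 1 called, it was 0 with normexp, 2 with the 75th percentile scaling, with the filter on dim probes and with the mean of all probes, 3 with only the compared groups and 9 with array weights. In ob/ob vs. PPARγ2KO, with 0 called, it was 2 with the filter and 3 with array weights. Leaving out each array gave 2 to 9 members in ob/ob vs. WT, 0 to 3 in POKO vs. WT, 0 to 3 in ob/ob vs. PPARγ2KO, 0 to 1 in POKO vs. PPARγ2KO and 0 in the others. With the replicate number, which is the slide, as a block, 5 members were called in ob/ob vs. WT, where Tnfrsf25 and Tnfrsf13c lost their calls, and 0 in POKO against WT, where Tnfrsf9 lost its call. The block changed no other call. The cause of these changes was not tested. The normexp alternative also took the median spot and background signals in place of the processed signal, so its offset was not the only difference from the main fit. No member changed sign under any alternative among the differences followed. Probes not well above background carry only bounds, and 3 arrays per genotype limit what the contrasts could call.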
